A study of Rattus norvegicus with 4 samples.

Results

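Heme, the iron-containing ring that cytochrome P450 enzymes carry, is built and broken down by a short chain of enzymes, and the genes of 9 of these enzymes were examined in rat livers subjected to inhalational anesthesia. They were matched by their symbols, and the set was chosen with earlier results of these data known. It held *Alas1*, *Alad*, *Uros*, *Urod*, *Cpox*, *Ppox* and *Fech* for synthesis, and *Hmox1* and *Blvrb* for breakdown. All 9 were present among the 16992 annotated genes of the deposited tables, each as 1 entry per library. Male wild type Wistar rats, bought at an age of 6 weeks and kept for at least 1 more week, inhaled either 4.5% sevoflurane or 6% desflurane, both of which are volatile anesthetic agents, in oxygen-enriched gas. For each agent, 1 rat was anesthetized for 6 hours, and 1 control rat was sacrificed right after it lost consciousness, in less than 1 minute. The controls had therefore also inhaled the agent. All rats were killed at about the same time of day, and food and water were withheld for 2 hours before anesthesia, so that the rats kept under for 6 hours had also gone longer without food than the controls, which cannot be told apart from the agent. Liver RNA, taken from the left lateral lobe, was sequenced in 1 library for each of the 4 rats, so that no spread between replicates could be measured and no test was made.

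In hepatocytes, heme synthesis starts in the mitochondria with ALAS1, the rate-limiting enzyme, which joins glycine to succinyl-CoA. ALAD, UROS and UROD continue the chain in the cytosol, and CPOX, PPOX and FECH finish it in the mitochondria, where FECH inserts the iron. HMOX1 opens the heme ring to biliverdin, and biliverdin reductases such as BLVRB reduce biliverdin to bilirubin or related pigments. The liver is the main site of heme synthesis outside the bone marrow because its P450 enzymes need heme, and drugs that induce P450 enzymes are known to induce *Alas1* in this tissue.

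*Alas1* was the only one of the 9 genes that passed the calling rule, which asked for more than 2 TPM in the higher state and for a ratio to the control beyond 2-fold. TPM is a level of RNA corrected for transcript length and sequencing depth. *Alas1* rose 4.41-fold after 6 hours of sevoflurane and 3.04-fold after 6 hours of desflurane. The other 8 genes differed from their own control by less than 2-fold with both agents, and the greatest of these differences was that of *Hmox1* with sevoflurane, at 1.67-fold. Thus, the first enzyme of the chain stood apart from the enzymes that follow it in all 4 comparisons with a control.

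The promoters of *Alas1* and *Alad* are shown because these genes encode neighboring steps of the chain and had different patterns of RNA. Each sequence is the 250 bases before the start site in RefSeq (build GRCr8, a later build than the rn6 coordinates given for the genes), written 5′ to 3′ along the strand of the gene. Capitals mark the NRF1 motif (GCGCANGCG, bound by nuclear respiratory factor 1) in *Alas1*, and the GC box (GGGCGG) and E-box (CACGTG) in *Alad*.
*Alas1*, chr8:115768643-115768892, minus strand: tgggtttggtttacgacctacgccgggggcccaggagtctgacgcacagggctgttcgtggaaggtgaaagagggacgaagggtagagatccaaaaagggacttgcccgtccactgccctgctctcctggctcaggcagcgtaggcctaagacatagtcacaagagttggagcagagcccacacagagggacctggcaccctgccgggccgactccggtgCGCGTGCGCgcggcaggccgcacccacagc
*Alad*, chr5:80987902-80988151, minus strand: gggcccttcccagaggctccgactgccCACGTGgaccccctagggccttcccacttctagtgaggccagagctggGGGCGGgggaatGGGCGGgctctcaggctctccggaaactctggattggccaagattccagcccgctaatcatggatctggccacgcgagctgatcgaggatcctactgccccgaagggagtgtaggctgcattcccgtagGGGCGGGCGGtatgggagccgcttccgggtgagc

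Of the 9 genes, 7 had a promoter in the RefSeq table, and *Cpox* and *Hmox1* are named only. Motifs were searched as letters on both strands, and a match is a description of the sequence only. The NRF1 motif was present in *Alas1* alone among the 7, between 30 and 22 bases before the start, and in 5.09% of all 33469 promoters of the same length. It reads CGCGTGCGC on the strand of the gene. The CRE half-site (TGACG), a motif of the cAMP response, was present in *Alas1* and *Ppox* and in 18.2% of all promoters. The E-box was present in *Alad* and *Urod* and in 5.59% of all promoters, and the GC box in *Alad*, *Urod*, *Fech* and *Blvrb* and in 30.5%. In *Alad*, the GC box occurred 4 times, of which 2 overlapped. The core of the antioxidant response element (TGACNNNGC) was present in 0 of the 7 and in 10.1% of all promoters.

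The libraries held between 4.47 and 5.40 gigabases of aligned sequence, and all 9 genes had a TPM value higher than 2 in all 4 libraries. Their average coverage, the mean number of reads over each base of the exons, ranged from 8.58 for *Uros* after desflurane to 732 for *Alas1* after sevoflurane. The levels of *Uros* therefore rest on the fewest reads per base. The 12 hepatocyte markers examined, among them *Alb* and *Ttr*, added up to between 153225 and 169251 TPM in each library, so that RNA of hepatocytes was abundant in all 4. In RNA from a whole piece of liver, fewer cells of a type and less RNA per cell cannot be told apart.

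**Figure D1:**
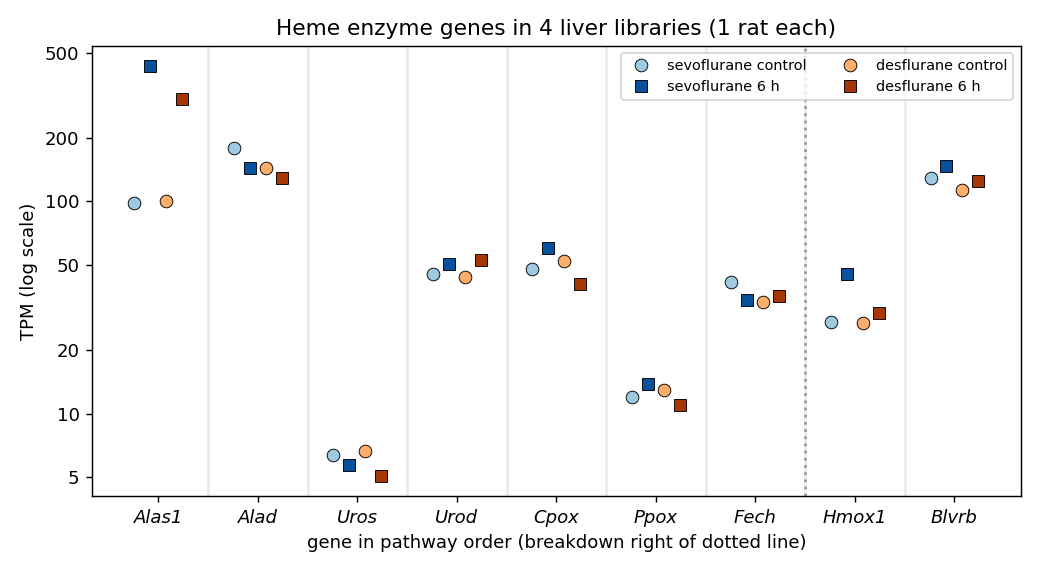
TPM values (log scale) of the 9 genes in the 4 libraries, in pathway order, with controls as circles and 6-hour libraries as squares; each point is 1 rat. *Alas1* is at 433 and 304 TPM after 6 hours against 98.2 and 100.2 in the controls. The 4 points of each other gene differ by less than 2-fold, and the most for *Hmox1*, at 1.70-fold.

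*Alas1* (rn6, chr8:114927706-114941038, minus strand) measured 98.2 TPM in the sevoflurane control, 433 after sevoflurane, 100.2 in the desflurane control and 304 after desflurane. Both 6-hour libraries were far above both controls, and the controls differed from each other by 1.02-fold. Because the controls were so close, the choice of control hardly mattered. *Alas1* was 4.32-fold higher after sevoflurane than in the desflurane control, and 3.10-fold higher after desflurane than in the sevoflurane control. Among genes with a TPM value higher than 2 in both libraries compared, this increase ranked 11 of 9251 with sevoflurane and 48 of 9412 with desflurane. Ordered by abundance among all 16992 genes, *Alas1* moved from position 929 to 223 with sevoflurane and from 875 to 318 with desflurane. Its level was 1.42-fold lower after desflurane than after sevoflurane, in a comparison of 1 rat with 1 rat.

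Of the 9 genes, 1 was upregulated and 0 were downregulated in each comparison with a control. With sevoflurane against its own control, 2.23% of all genes with a TPM value higher than 2 in either library were upregulated and 3.3% were downregulated. Against the desflurane control, the shares were 2.52% and 2.59%. With desflurane against its own control, 2.79% of genes were upregulated and 1.48% were downregulated, and against the sevoflurane control 2.84% and 1.58%. With so few genes, 1 of 9 cannot be read as a higher share than these backgrounds, and the result is that of *Alas1* itself and not of the group.

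The median log2 change of the 9 genes was 0.20 with sevoflurane, beside 0.06 over all genes with a TPM value higher than 2 in both libraries. With desflurane it was 0.10, beside 0.12 over all genes. The group median with sevoflurane, which was the value of *Blvrb*, lay above 68.1% of these genes. With desflurane it was the value of *Fech* and lay above 46.4% of them. Against the opposite control, the group median was 0.21 for sevoflurane, beside 0.07 over all genes, and -0.12 for desflurane, beside 0.10. The sign of the median with desflurane thus depended on which control rat was used.

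**Figure D2:**
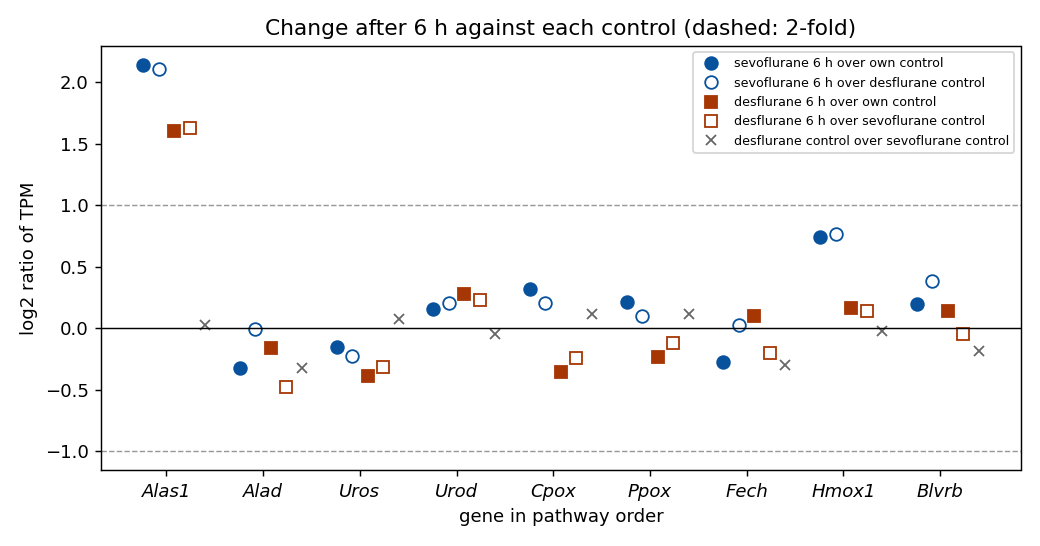
log2 ratio of TPM for each gene in pathway order: filled symbols are 6 hours over own control, open symbols are 6 hours over the control of the other agent, and crosses are the desflurane control over the sevoflurane control; dashed lines mark 2-fold. The 4 points of *Alas1* lie between 1.60 and 2.14, and all points of the other 8 genes lie between the dashed lines.

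The difference between the control rats gives the only available measure of how far 2 livers differ without 6 hours of anesthesia, although these controls inhaled different agents. Over 9347 genes with a TPM value higher than 2 in both controls, the middle of the absolute log2 difference was 0.15 and its 95th percentile was 0.62. Among the 9 genes the greatest such difference was 0.32, for *Alad*, which was lower in the desflurane control. The log2 changes of *Alas1*, 2.14 and 1.60, and that of *Hmox1* with sevoflurane, 0.74, were greater than this 95th percentile. The log2 changes of the other 7 genes against their own controls ranged from -0.39 to 0.32 and were all within it. For sevoflurane against its own control, however, the 95th percentile of the absolute log2 change over all such genes was 0.88. The value of *Hmox1*, 0.74, was thus within the spread of all genes in its own comparison.

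The enzymes of the cytosolic steps follow *Alas1* in the chain. *Alad* (chr5:78368868-78379206, minus strand), whose enzyme joins 2 molecules of aminolevulinic acid, measured 179 TPM in the sevoflurane control, 143.03 after sevoflurane, 143.46 in the desflurane control and 128 after desflurane. The sevoflurane control was high and the other 3 libraries were close together, and *Alad* after sevoflurane was at 0.997 of the desflurane control. Its log2 change with sevoflurane was -0.33 against its own control and -0.00 against the other control. With desflurane the log2 changes were -0.16 and -0.48.

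*Uros* (chr1:205756638-205777167, minus strand), which encodes the synthase that closes the porphyrin ring, was the least abundant of the 9 genes. It measured 6.35 TPM in the sevoflurane control, 5.72 after sevoflurane, 6.68 in the desflurane control and 5.09 after desflurane. Both 6-hour libraries were below both controls, with a log2 change of -0.15 for sevoflurane and -0.39 for desflurane. *Urod* (chr5:135855429-135859515, minus strand), which encodes the decarboxylase of the next step, had TPM values of 45.4, 50.6, 43.9 and 53.2 in the same order. Here both 6-hour libraries were above both controls, by a log2 value of 0.16 and 0.28 against their own controls.

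The last 3 enzymes act in mitochondria. *Cpox* (chr11:44039666-44049648, minus strand), which encodes coproporphyrinogen oxidase, measured 48.2 TPM in the sevoflurane control, 60.1 after sevoflurane, 52.2 in the desflurane control and 40.6 after desflurane. The level was highest after sevoflurane and lowest after desflurane, with log2 changes of 0.32 and -0.36. *Ppox* (chr13:89650094-89654229, minus strand), which encodes the oxidase that acts on the product of CPOX, had TPM values of 11.9, 13.8, 12.9 and 11.0 in that order, with log2 changes of 0.22 and -0.23. *Cpox* and *Ppox* had the same order of the 4 libraries, and each was the nearest of the 9 genes to the other, with a root mean square difference of centered log2 TPM of 0.0820 over the 4 libraries. Against the control of the other agent, the log2 changes kept their signs, at 0.21 and -0.25 for *Cpox* and 0.10 and -0.12 for *Ppox*.

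*Fech* (chr18:59941992-59975192, minus strand), which encodes ferrochelatase, measured 41.5 TPM in the sevoflurane control, 34.3 after sevoflurane, 33.7 in the desflurane control and 36.0 after desflurane. As with *Alad*, the sevoflurane control was the highest library and the other 3 were close together. Against its own control, the log2 value was -0.28 for sevoflurane and 0.10 for desflurane, and against the opposite control 0.02 and -0.20. *Alad* was the nearest of the 9 genes to *Fech*, with a root mean square difference of 0.111. No direction can be given for *Fech* with either agent.

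Because *Alas1* rose and the later enzymes did not pass the rule, the balance within the chain was calculated in each library, which needs no scaling between libraries. The ratio of *Alas1* to *Alad* was 0.548 in the sevoflurane control, 3.03 after sevoflurane, 0.699 in the desflurane control and 2.37 after desflurane. RNA for the first enzyme was thus less abundant than that for the next enzyme in both controls and more abundant in both 6-hour libraries. The ratio of *Alas1* to the geometric mean of the 6 later synthesis enzymes was 3.0, 13.3, 3.19 and 10.6 in the same order. That geometric mean itself stayed between 28.7 and 32.7 TPM. *Alas1* made up 22.8% and 25.5% of the summed TPM of the 7 synthesis genes in the controls, and 58.5% and 52.6% after sevoflurane and desflurane. *Alad* was the most abundant of the 7 in the controls, at 41.6% and 36.5% of the sum, and held 19.3% and 22.2% after 6 hours.

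**Figure D3:**
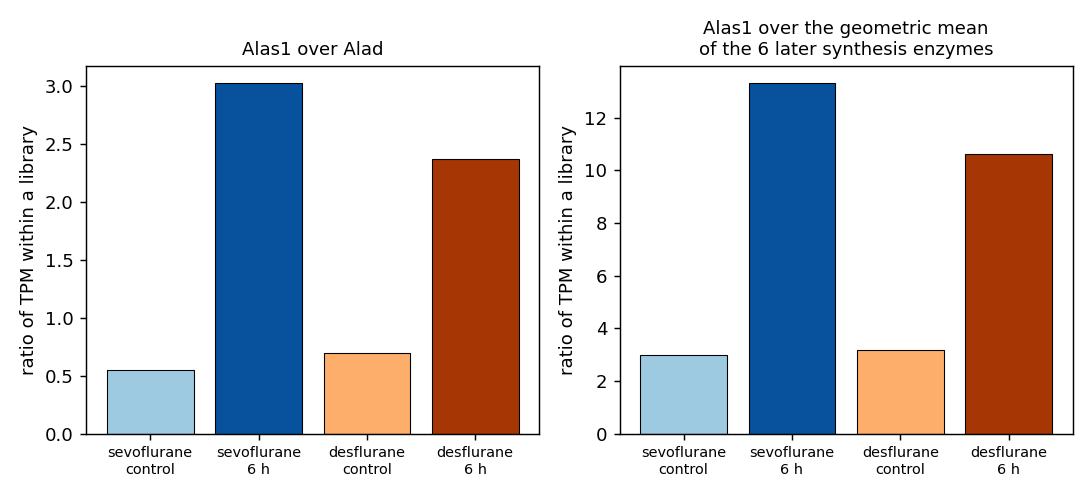
Ratios of TPM within each library (bars, 1 library each, no error bars because there are no replicates): *Alas1* over *Alad* on the left and *Alas1* over the geometric mean of the 6 later synthesis enzymes on the right. *Alas1* over *Alad* is 0.548 and 0.699 in the controls and 3.03 and 2.37 after 6 hours.

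Of the breakdown enzymes, *Hmox1* (chr19:14508634-14515456, plus strand), which encodes the inducible heme oxygenase, measured 27.1 TPM in the sevoflurane control, 45.3 after sevoflurane, 26.7 in the desflurane control and 29.9 after desflurane. The library after sevoflurane was high and the other 3 were close together. The 1.67-fold difference with sevoflurane did not reach the 2-fold limit and ranked 354 of 9251 among increases, and against the desflurane control it was 1.70-fold. With desflurane the ratio was 1.12 against its own control and 1.1 against the other, so that the level after desflurane was 1.52-fold lower than after sevoflurane. The ratio of *Hmox1* to *Hmox2*, the constitutive heme oxygenase, was 0.708 in the sevoflurane control, 1.327 after sevoflurane, 0.719 in the desflurane control and 0.765 after desflurane. *Hmox1* was more abundant than *Hmox2* in the library after sevoflurane and less abundant in the other 3 libraries.

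*Blvrb* (chr1:84256063-84273726, plus strand), which encodes biliverdin reductase B, measured 129 TPM in the sevoflurane control, 148 after sevoflurane, 113 in the desflurane control and 125 after desflurane. Against their own controls the log2 values were 0.20 for sevoflurane and 0.14 for desflurane, but the level after desflurane lay between the controls, and its log2 change against the sevoflurane control was -0.05. *Blvrb* was between 6.63-fold and 8.37-fold more abundant than *Blvra*, which encodes the other biliverdin reductase, in the 4 libraries.

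When the 2 controls were set against the 2 libraries of 6 hours, 3 genes were higher in both 6-hour libraries than in both controls, namely *Alas1*, *Urod* and *Hmox1*. Among all genes with a TPM value higher than 2 in any library, 33.3% had this pattern. The gap between the lowest 6-hour value and the highest control value was 3.04-fold for *Alas1*, 1.12-fold for *Urod* and 1.1-fold for *Hmox1*. *Alad* and *Uros*, 2 genes, were lower in both 6-hour libraries, with gaps of 1.003-fold and 1.11-fold, beside 13.3% of all genes. The other 4 genes, *Cpox*, *Ppox*, *Fech* and *Blvrb*, overlapped as deposited. Apart from *Alas1*, these counts lie close to the background and the gaps are small. After another scaling of the libraries, by the median of ratios, the share of higher genes among all genes that did not overlap went from 71.4% to 49.7%, and among all calls with desflurane the share of upregulated genes went from 65.3% to 50.1%. With this scaling *Fech* was also lower in both 6-hour libraries than in both controls, which made 3 genes, and the log2 value of *Alas1* was 2.09 for sevoflurane and 1.48 for desflurane.

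The tables also hold genes that StringTie assembled from the same reads. For *Urod*, *Cpox* and *Hmox1*, the assembled gene had the same coordinates and the same TPM as the annotated gene in all 4 libraries, so that it adds nothing to the annotated values. *Alas1* was assembled in 2 pieces. The piece over most of the gene measured 114 TPM in the sevoflurane control, 503 after sevoflurane, 115 in the desflurane control and 334 after desflurane, that is, 4.41-fold and 2.91-fold. The piece at its 5′ end had values of 11.8, 37.3, 9.80 and 40.3, that is, 3.18-fold and 4.11-fold. Both pieces were higher in both 6-hour libraries than in both controls, but the order of the agents differed, with sevoflurane higher over the body and desflurane higher at the 5′ end. For *Blvrb*, the assembled gene held only 0.148 to 0.225 of the annotated TPM, and its level is therefore less certain than those of the others.

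Erythroid cells also make heme, and blood in the liver could carry their RNA. Of the 19 erythroid markers listed, 17 were found, and their TPM values added up to 146 in the sevoflurane control, 118 after sevoflurane, 119 in the desflurane control and 73.3 after desflurane. Among these, *Hbe1* was listed at 0 in all 4 libraries. *Alas2*, the erythroid gene for the first step, had TPM values of 13.6, 6.18, 5.93 and 6.03 in the same order. It fell by the calling rule with sevoflurane, 2.20-fold, and was 1.04-fold the desflurane control, so that the sevoflurane control alone was high. *Hbb*, the hemoglobin beta chain, had 31.3, 23.3, 24.8 and 11.6 TPM, and fell with desflurane, 2.15-fold. Of the markers with a TPM value higher than 2 in both libraries, 7 of 9 were lower after sevoflurane and 6 of 7 were lower after desflurane than in their own control. Against the opposite control, 6 markers fell by the rule with desflurane, *Hbb* and *Alas2* among them, with a median log2 change of -1.19. With sevoflurane, 0 fell and 1, *Ahsp*, rose against the opposite control, with a median of -0.02. The sevoflurane control was thus the highest library for the summed erythroid markers as well as for *Alad* and *Fech*, and the part of erythroid RNA in those levels was not tested. *Alas1* was between 7.23-fold and 70.0-fold as abundant as *Alas2*.

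Kupffer cells, the macrophages of the liver, clear old red blood cells and express *Hmox1*. Of 14 markers of these cells, 13 were found, and their TPM values added up to 866 in the sevoflurane control, 516 after sevoflurane, 679 in the desflurane control and 779 after desflurane, with none listed at 0. All 12 markers that could be compared were lower after sevoflurane than in its control, with a median log2 change of -0.70, and 4 of them passed the rule, namely *Cd5l*, *Marco*, *Csf1r* and *Adgre1*. Against the desflurane control, 2 of these passed, *Cd5l* and *Marco*, and the median was -0.33. With desflurane, 0 of 12 passed the rule against its own control, and the median was 0.13, or -0.14 against the sevoflurane control. *Hmox1* was highest in the library in which the sum of these markers was lowest. The part of these cells in the level of *Hmox1* was not tested.

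**Figure D4:**
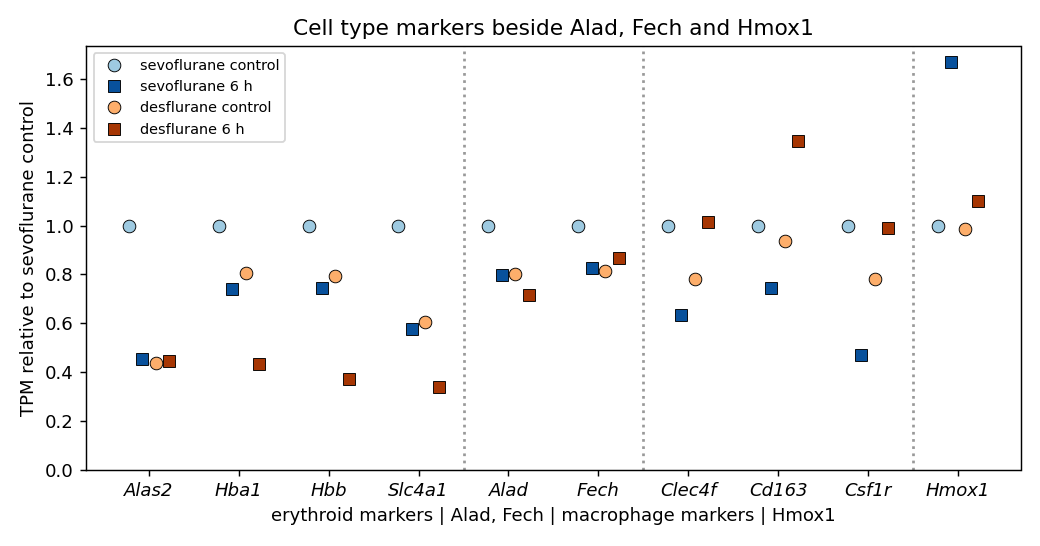
TPM relative to the sevoflurane control, with 1 point per library, for the erythroid markers *Alas2*, *Hba1*, *Hbb* and *Slc4a1*, for *Alad* and *Fech*, for the macrophage markers *Clec4f*, *Cd163* and *Csf1r*, and for *Hmox1*. The sevoflurane control is the highest point for the erythroid markers shown, *Alad* and *Fech*. The library after sevoflurane is the lowest for the macrophage markers shown and the highest for *Hmox1*. Some markers not shown differ: *Tfrc* and *Ahsp* were highest after sevoflurane, and *Lyz2* was lowest after desflurane.

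For the other cell types that liver samples hold, no list had summed levels in both 6-hour libraries above both controls. Whether the mix of cells had a part in the level of *Alas1* was not tested. The summed TPM in the order given above was 15.1, 16.9, 21.4 and 14.5 for 5 cholangiocyte markers, and 192, 178, 185 and 212 for 6 endothelial markers. It was 290, 312, 314 and 325 for 8 markers of stellate cells and fibroblasts, and 28.0, 21.7, 27.6 and 28.9 for 8 lymphocyte markers. Most of the sum for stellate cells and fibroblasts came from *Col3a1*, at 196, 220, 206 and 216 TPM. Most of the lymphocyte sum came from *Cd4*, at 19.1, 18.3, 21.8 and 23.3 TPM, so that this sum says little about the other lymphocyte markers. *Acta2*, a gene of activated stellate cells and smooth muscle, rose with sevoflurane from 6.28 to 15.8 TPM. The lymphocyte genes *Cd8a* and *Cd79b* fell with sevoflurane, from 2.92 to 0.836 TPM and from 2.89 to 0.300 TPM. Against the desflurane control *Cd79b* was 6.63-fold lower, but did not pass because that control, at 1.99 TPM, was below the limit of 2 TPM. Of the 12 hepatocyte markers, only *Pck1*, which encodes an enzyme of gluconeogenesis, passed the rule against its own control, with desflurane, at 2.30-fold. Its level was 1079 TPM in the sevoflurane control, 980 after sevoflurane, 414 in the desflurane control and 951 after desflurane, so that the desflurane control alone was low. After desflurane it was at 0.881 of the sevoflurane control, and after sevoflurane *Pck1* and *Tat* passed the rule against the desflurane control, at 2.37-fold and 2.19-fold.

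The remaining genes of the pathway were few. Of 5 genes, *Alas2* was downregulated with sevoflurane as given above, and none passed the rule against its own control with desflurane. *Ugt1a1*, whose enzyme conjugates bilirubin for excretion, measured 346 TPM in the sevoflurane control, 663 after sevoflurane, 296 in the desflurane control and 477 after desflurane, or 1.92-fold and 1.61-fold against own controls, and 2.24-fold for sevoflurane against the desflurane control. It shares exons with the other *Ugt1a* genes, so that its reads may belong in part to them.

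Of 20 genes for the transport of heme, porphyrins and iron and for mitochondrial assembly, 0 passed the rule with sevoflurane, and 1, *Tspo*, fell with desflurane, from 3.19 to 1.57 TPM, but did not pass against the sevoflurane control, at 2.09 TPM. The median log2 change of the list was 0.07 with each agent, beside the 0.06 and 0.12 over all genes given above. *Hpx* and *Hp*, which encode the plasma proteins that bind free heme and hemoglobin, were the most abundant, at 4357 to 5747 TPM and 4346 to 5285 TPM in the 4 libraries. Of 11 genes of iron storage and uptake, 0 passed the rule with either agent, with medians of 0.11 and 0.17. The ferritin light chain *Ftl1* was the most abundant, at 3081 to 4187 TPM, and the heavy chain *Fth1* had between 1036 and 1206 TPM.

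Of 18 genes for regulators of *Alas1* and *Hmox1*, 1 passed the rule with sevoflurane and 3 with desflurane. With sevoflurane, *Nr1i3*, which encodes the xenobiotic receptor CAR, fell from 52.9 to 22.7 TPM, but against the desflurane control its difference was 1.64-fold and did not pass. With desflurane, *Nr1i2*, which encodes the xenobiotic receptor PXR, rose from 54.2 to 153 TPM. The coactivator gene *Ppargc1a* rose from 2.90 to 13.5 TPM, and *Ppargc1b* from 3.59 to 7.82 TPM. These 3 also passed against the sevoflurane control. *Nr1i2* after sevoflurane was 1.79-fold its own control and 2.24-fold the desflurane control. *Nrf1*, which encodes the factor whose motif is in the *Alas1* promoter, had 6.0 TPM in the sevoflurane control, 7.49 after sevoflurane, 4.88 in the desflurane control and 6.56 after desflurane, and did not pass. *Hnf4a*, which encodes a hepatocyte transcription factor, and *Nr1d1*, a circadian repressor gene, were the most abundant of the list, at 199 to 246 TPM and 116 to 195 TPM. The median log2 change of the list was -0.03 with sevoflurane and 0.33 with desflurane, and 0.18 and 0.14 against the opposite control.

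*Hmox1* is a known target of NRF2, the factor of the antioxidant response, and 10 other targets were examined. Among them, *Gclm*, which encodes a subunit of the enzyme that starts glutathione synthesis, fell from 252 to 101.3 TPM with sevoflurane and from 180 to 73.9 TPM with desflurane. *Osgin1*, an oxidative stress response gene, fell from 156 to 76.4 TPM and from 220 to 72.3 TPM. *Slc7a11*, a cystine transporter gene, rose with sevoflurane from 0.366 to 2.81 TPM, near the limit of 2 TPM. *Nqo1*, a classical target, had TPM values of 7.06, 10.4, 8.89 and 8.94 in the 4 libraries. *Srxn1*, another of the targets, had 11.1, 17.9, 8.74 and 9.87 TPM in the same order. It passed the rule only with sevoflurane against the desflurane control, at 2.04-fold, and was 1.61-fold higher against its own control. The median log2 change of the list was 0.02 with sevoflurane and -0.30 with desflurane, and 0.15 and -0.17 against the opposite control. *Gclm* against the control of the other agent was 1.777-fold lower after sevoflurane, below the limit.

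Heme is used by the P450 enzymes, and *Por* encodes their electron donor. *Por* rose from 144 to 642 TPM with sevoflurane and from 119 to 415 TPM with desflurane, that is, 4.46-fold and 3.48-fold, near the values of *Alas1*. Of the 12 genes for other heme proteins and P450 partners, *Tdo2*, which encodes the heme enzyme that degrades tryptophan, also rose with desflurane, 2.38-fold, and the prostaglandin synthase gene *Ptgs1* fell with sevoflurane, 2.34-fold. Neither passed against the opposite control, where *Tdo2* was 1.992-fold higher and *Ptgs1* was 1.948-fold lower. *Cat*, the catalase gene, was the most abundant, at 1407 to 1969 TPM, followed by *Cyb5a*, and *Ngb* was at or near 0. The medians were 0.03 and 0.15.

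Of 9 P450 genes, 3 rose with sevoflurane and 5 with desflurane. *Cyp2b1* measured 17.8 TPM in the sevoflurane control, 1632 after sevoflurane, 16.1 in the desflurane control and 1090 after desflurane. *Cyp2b2* had 153, 1893, 165 and 1271 TPM. These paralogs are nearly identical, so that reads may be split between them. *Cyp7a1*, the rate-limiting enzyme of bile acid synthesis, rose 2.32-fold with sevoflurane. *Cyp2c11*, *Cyp1a2* and *Cyp4a1* rose with desflurane against its own control but did not pass against the sevoflurane control. The most abundant of the list, *Cyp2e1* and *Cyp3a2*, had 2034 to 3361 TPM and 1567 to 2599 TPM and did not pass with either agent. The median log2 change of the list was -0.07 with sevoflurane and 1.04 with desflurane, but against the opposite control it was 0.64 and 0.29, so that the order of the agents turned with the control rat.

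**Figure D5:**
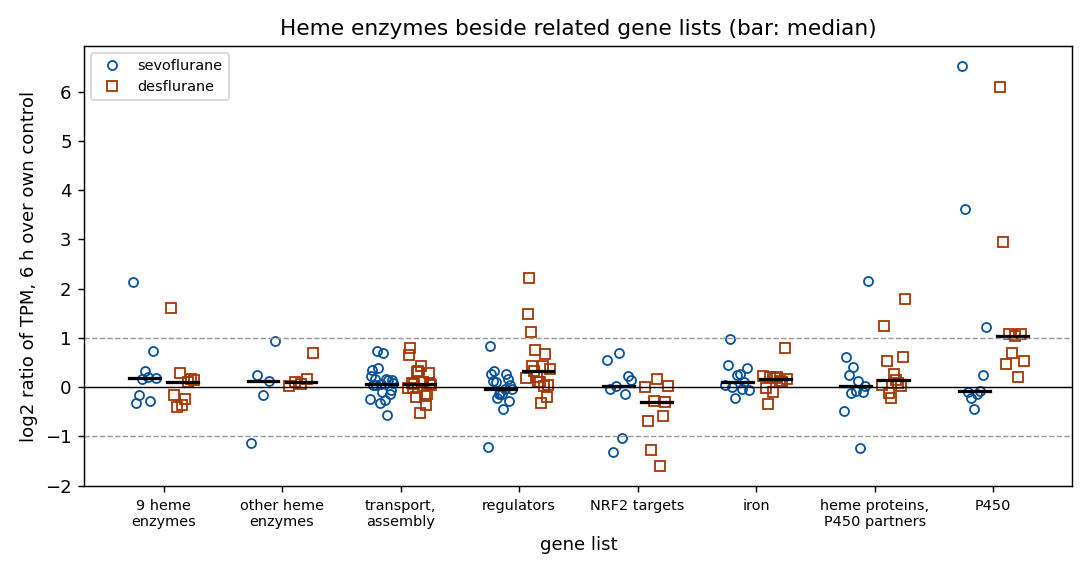
log2 ratio of TPM after 6 hours over own control for the 9 heme enzymes and 7 related gene lists, with circles for sevoflurane, squares for desflurane, black bars for the median of each list and dashed lines at 2-fold; each point is 1 gene with a TPM value higher than 2 in both libraries. *Alas1* is the only heme enzyme beyond the dashed lines among the 9, and the medians of the 9 are 0.20 and 0.10.

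Genes with a profile like that of *Alas1* were searched by the root mean square difference of centered log2 TPM over the 4 libraries, among 9136 genes with a TPM value higher than 2 in all of them. The nearest were *Got1* at 0.116, *Por* at 0.126, *Trib3* at 0.164, *Ces2c* at 0.180 and *Unc5b* at 0.203. *Got1*, which encodes cytosolic aspartate aminotransferase, measured 38.8 TPM in the sevoflurane control, 189 after sevoflurane, 40.3 in the desflurane control and 147 after desflurane. All 5 were higher in both 6-hour libraries than in both controls, with sevoflurane the highest. For comparison, the nearest of the other 8 heme enzymes to *Alas1* was *Hmox1*, at 0.711. The genes nearest to *Hmox1* were *Lmo7* at 0.00764, *Rab34* at 0.0380, *Oxld1* at 0.0399, *Nt5c3b* at 0.0418 and *Xpo1* at 0.0423. With only 4 libraries, 1 for each condition, these distances are a description.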

How the data were processed

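Liver RNA of 4 rats was sequenced as 101-base reads, with 1 library per condition taken from the sample labels. The authors trimmed reads with sickle, aligned them to rn6 with HISAT2, sorted them with SAMtools and ran StringTie with the refGene annotation of rn6. The deposited tables give per gene the average coverage (signal, not normalized for depth) and FPKM values, normalized by the authors' StringTie run. The TPM values are a deposited signal scaled so that assembled genes add up to 1000000, and annotated genes add up to between 779824 and 813454 on this scale. Only entries longer than 200 base pairs were kept, and TPM values were summed per symbol. Read counts are not given in the sources used here, so that the precision of single values is unknown apart from coverage.

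The calling rule of the study was applied without a pseudocount. No test was made. All 9 members were named, and from each related list up to 4 called genes and the 2 most abundant, with other genes added where a sentence needed them after their values were seen. For *Alas1* and *Hmox1* the 5 genes with the nearest profiles were named. Members and lists were chosen with earlier results of these data known. Among the listed genes, *Tspo2*, *Flvcr1*, *Clpp*, *Pcbp1*, *Hba2*, *Timd4*, *Krt7*, *Stab1*, *Clec4g* and *Cd79a* were not analysed here. Alternatives were the other control, the mean of both controls, other scaling, FPKM values, a pseudocount of 1 TPM, other limits and assembled genes. Scripts were tested on simulated data. Python 3.11.15, pandas 2.3.3 and numpy 2.4.6 were used.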

Additional observations from a re-analysis of the deposited data

Results flagged for a closer look

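For 3 genes, the sevoflurane and desflurane libraries differed from their own controls in opposite directions. With 1 library per condition, this difference was not tested. For *Cpox*, the log2 change with desflurane minus that with sevoflurane was -0.68, and for *Ppox* it was -0.45. Both were higher after sevoflurane and lower after desflurane than either control. For *Fech*, the same difference was 0.37, and its direction turned with the control of the other agent, as given above.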

How the results depend on the processing

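*Alas1* passed the rule under all alternatives in which it was recomputed, with a log2 change of 2.09 to 2.14 with sevoflurane and 1.48 to 1.63 with desflurane. With a fold limit of 1.5, 2 genes were upregulated by sevoflurane, the second being *Hmox1*. The median log2 change with desflurane, 0.10, became -0.12 against the opposite control, -0.062 against the mean of the controls and -0.031 after scaling by the median of ratios. The 3 genes that were higher in both 6-hour libraries became 1 with FPKM values and 1 when a gap of 1.2-fold was asked for. The 2 genes that were lower became 1 with FPKM values, 0 with the gap of 1.2-fold, 3 after scaling by the median of ratios, with *Fech* added, and 1 when assembled genes were added, which counts the same reads again. Within each library, the FPKM and TPM values of the 9 genes differed by the same factor, and this factor differed between libraries. The changes with FPKM values are thus those of another scaling between libraries. Of 18 log2 changes against the own control, 3 changed sign with the control of the other agent (*Fech* with both agents and *Blvrb* with desflurane), and 1, *Fech* with desflurane, with the mean of the controls and after scaling. With the largest assembled gene in place of the annotated gene, an alternative chosen after seeing the data, *Blvrb* with sevoflurane was -0.24. FPKM values, a pseudocount of 1 TPM and the added assembled genes changed no sign. Leaving out a library was not possible, and no paired analysis was possible because each condition has 1 library and the labels share no replicate numbers. Depth limits *Uros* most, with the lowest coverage of the 9 genes.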
